A study of Rattus norvegicus with 113 samples.

Results

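The response of 10 genes of the tumor necrosis factor (TNF) and nuclear factor kappa B (NF-kB) pathway to traumatic brain injury (TBI) was followed in the rat: the ligand gene Tnf, the receptor genes Tnfrsf1a and Tnfrsf1b, the inhibitor and regulator genes Tnfaip3, Nfkbia and Bcl3, and the subunit genes Nfkb1, Nfkb2, Relb and Rela. They were chosen by symbol, each probe being assigned to a gene when the accession on the array matched that rat gene in RefSeq, and the selection rule itself uses no measured value. Of the 10 genes, 8 were measured, out of 16581 genes that could be named on the larger of the 2 array designs used. No probe accession matched Tnfaip3 or Relb, and no value is given for either.

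RNA from hippocampus or from the cortex under the injury was hybridised to 1-colour Agilent arrays, 113 in all. Adult male Sprague-Dawley rats received parasagittal fluid percussion injury, a pulse of fluid onto the exposed dura, which the labels call moderate and the methods call severe (TBI rats), or the same anesthesia and surgery without the pulse (sham rats), or neither surgery nor anesthesia (naive rats). Tissue was taken 24 hr, 2 wk, 3 mo, 6 mo or 12 mo later, and the 24 hr arrays therefore lie close in time to anesthesia and surgery. Each group held 4 arrays, except hippocampus at 24 hr, which held 2 sham and 3 TBI arrays and no naive ones. Both tissues are mixtures of cell types, so that fewer cells of a type and less RNA per cell cannot be told apart. Hippocampus at 24 hr and at 3 mo was run on the smaller array design and all other groups on the larger one, and levels were compared only within a design.

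TNF is a cytokine released by microglia, macrophages and other cells after tissue damage, and it signals through TNF receptor 1 (Tnfrsf1a), found on most cells, and TNF receptor 2 (Tnfrsf1b), found mainly on immune, endothelial and glial cells. Receptor engagement activates the IkB kinase complex, which marks the inhibitor IkB-alpha (Nfkbia) for destruction and frees dimers of p50 (from Nfkb1) and p65 (Rela) to enter the nucleus, while a slower branch processes p100 (Nfkb2) to p52, the partner of RelB. The pathway limits itself because Nfkbia, A20 (Tnfaip3) and BCL-3 (Bcl3), a nuclear IkB protein that binds p50 and p52, are among the genes it switches on.

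The proximal promoters of 5 members on which the results turn are printed here so that the sequence upstream of the genes with the largest early differences, Bcl3, Tnfrsf1a and Tnfrsf1b, can be read next to that of Nfkbia and Nfkb2. Each runs 5′ to 3′ on the gene's strand, from 250 bases before to 50 bases after the annotated start, as taken from RefSeq on the GRCr8 assembly, and capitals mark a match, on either strand, to the kB consensus, the DNA word bound by NF-kB dimers. Bcl3 lies at chr1:88613506-88613805, minus strand, Tnfrsf1a at chr4:159836869-159837168, plus strand, Tnfrsf1b at chr5:162387362-162387661, minus strand, Nfkbia at chr6:78597023-78597322, minus strand, and Nfkb2 at chr1:255108124-255108423, plus strand.
Bcl3: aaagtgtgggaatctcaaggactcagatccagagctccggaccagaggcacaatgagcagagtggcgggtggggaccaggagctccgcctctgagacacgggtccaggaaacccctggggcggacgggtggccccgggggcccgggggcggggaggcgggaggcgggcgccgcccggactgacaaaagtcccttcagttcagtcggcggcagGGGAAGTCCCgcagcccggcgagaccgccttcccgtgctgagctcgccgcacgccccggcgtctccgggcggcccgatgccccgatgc
Nfkbia: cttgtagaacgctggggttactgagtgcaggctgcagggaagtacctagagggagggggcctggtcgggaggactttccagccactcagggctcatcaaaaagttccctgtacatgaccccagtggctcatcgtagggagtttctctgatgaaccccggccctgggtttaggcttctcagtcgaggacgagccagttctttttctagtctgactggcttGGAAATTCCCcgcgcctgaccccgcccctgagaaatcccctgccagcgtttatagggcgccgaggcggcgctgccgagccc
Nfkb2: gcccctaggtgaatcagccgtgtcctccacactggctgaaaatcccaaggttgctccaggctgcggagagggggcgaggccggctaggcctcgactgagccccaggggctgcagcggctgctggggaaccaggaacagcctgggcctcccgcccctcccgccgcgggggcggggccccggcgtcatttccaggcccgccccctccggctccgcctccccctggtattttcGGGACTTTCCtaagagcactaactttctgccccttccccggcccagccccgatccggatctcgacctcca
Tnfrsf1a: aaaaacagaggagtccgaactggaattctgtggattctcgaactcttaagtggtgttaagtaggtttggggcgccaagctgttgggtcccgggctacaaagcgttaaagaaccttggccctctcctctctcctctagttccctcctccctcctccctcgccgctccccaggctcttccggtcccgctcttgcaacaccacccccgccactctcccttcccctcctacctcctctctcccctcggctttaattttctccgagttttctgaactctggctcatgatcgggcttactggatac
Tnfrsf1b: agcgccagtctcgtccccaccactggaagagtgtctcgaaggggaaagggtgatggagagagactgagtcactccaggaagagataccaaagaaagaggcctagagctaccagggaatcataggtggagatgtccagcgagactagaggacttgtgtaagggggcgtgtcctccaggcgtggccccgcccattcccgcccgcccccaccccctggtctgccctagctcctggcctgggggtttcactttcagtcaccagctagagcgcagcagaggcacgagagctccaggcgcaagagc

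Of the 9 members with a promoter entry in RefSeq, 5 held the kB consensus in this window, against 1400 of all 33469 rat promoters of the same length (4.18%). The match lay at bases -38 to -29 from the start in Bcl3, -31 to -22 in Nfkbia, -20 to -11 in Nfkb2 and +4 to +13 in Nfkb1, and Tnfaip3 held 3 matches. Tnf, Tnfrsf1a, Tnfrsf1b and Rela held none, which says only that these letters do not occur in 300 bases around the start. The match is a description of sequence, and no binding was measured.

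Values are log2 of the processed signal minus the median log2 signal of the same array, so that 0 is the level of the median probe and a difference of 1 between groups is a 2-fold difference. Differences were tested with limma over all probes detected in at least one of the groups compared, a gene being called at a Benjamini-Hochberg adjusted p below 0.05, and counts at the methods' own thresholds, at least a 1.4-fold difference with an unadjusted p below 0.05, stand beside them. Between 41.2% and 93.0% of probes were well above background on an array (median 56.0%), none was saturated, and no 2 arrays were identical. Array replicate 3 of the cortex sham group at 2 wk, the one with 93.0%, stood apart from its group (lowest correlation within the group 0.511). Results that rest on it are given with and without it. Cortex naive replicate 4 at 2 wk had 65.2%, in a group with a lowest correlation of 0.910. It was the lowest naive array there for Tnfrsf1a (0.59), Tnfrsf1b (-2.57), Nfkbia (4.02), Nfkb1, Nfkb2 and Rela (2.49). Hippocampus naive replicate 2 at 6 mo had 72.5%, in a group with a lowest correlation of 0.946. It was the lowest naive array there for Rela (2.77). Each group lay on a single slide. TBI and sham arrays shared a slide in hippocampus at 2 wk, 3 mo and 12 mo and in cortex at 3 mo and 12 mo, and in the other TBI against sham comparisons slide and injury cannot be told apart, nor can scan day and injury in hippocampus at 24 hr. TBI and naive arrays shared no slide at any interval, and in those comparisons injury cannot be told apart from slide. Sham and naive arrays shared a slide in cortex at 24 hr, 2 wk and 6 mo and in hippocampus at 6 mo only. The share of all probes without overlap was counted only for TBI against sham. Non-overlap with naive values, given below, has no such share beside it. Genes that mark neurons, astrocytes and oligodendrocytes were well above background on all arrays of the larger design (8 of 8, 7 of 7 and 6 of 6 genes).

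At 24 hr in hippocampus, the genes for both TNF receptors and Bcl3 were higher after TBI than after sham surgery, and the other 5 members had positive differences that did not pass the test. Of 8 members tested, 3 were called at the adjusted p, all higher, and the same 3 passed the methods' thresholds, against 13.5% and 24.8% of all probes tested. The median difference of the 8 members was 0.82, against -0.02 over all probes.

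Bcl3 measured 2.17, 3.04 and 2.22 in the 3 TBI hippocampi and -1.16 and 0.33 in the 2 sham hippocampi. All TBI values lay above both sham values, and 1 of the 2 sham arrays was not well above background for this probe. The difference was 2.89 ± 0.48 (SE; 7.42-fold, adjusted p = 0.0157). With normexp background correction it was 1.54 (adjusted p = 0.00814). Bcl3 was not tested here when detection was required in both groups. Tnfrsf1a, the receptor that carries the death domain, measured 3.55, 3.76 and 3.40 after TBI and 1.55 and 2.38 after sham surgery, with a gap between the groups. It was 3.05-fold higher after TBI (log2 difference 1.61 ± 0.27, adjusted p = 0.0163). Tnfrsf1b, which lacks a death domain and signals through TRAF2, measured 1.46, 0.76 and 0.41 after TBI and -0.51 and -0.31 after sham surgery, again without overlap. It was 2.44-fold higher after TBI (log2 difference 1.29 ± 0.31, adjusted p = 0.0438). Groups did not overlap for these 3 members, and 22.8% of all probes tested lay higher without overlap. With sham replicate 1 left out no member was called, without any one of sham replicate 2, TBI replicate 1 and TBI replicate 2 only Bcl3 and Tnfrsf1a were called, and without TBI replicate 3 Nfkbia and Nfkb2 were called as well, 5 in all.

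The ligand itself was more variable. Tnf measured 1.83, 2.52 and 1.06 in the TBI hippocampi and -0.02 and 1.33 in the sham hippocampi, so that the second sham array lay above the third TBI array. The difference of 1.15 ± 0.53 did not pass the test (adjusted p = 0.200). Nfkbia measured 5.18, 5.16 and 4.47 after TBI and 4.50 and 4.41 after sham surgery, a difference of 0.48 ± 0.24 (adjusted p = 0.236). Nfkb2 measured 1.53, 1.52 and 0.92 after TBI and 0.90 and 0.93 after sham surgery. In each of Tnf, Nfkbia and Nfkb2, TBI replicate 3 was the lowest of the TBI arrays and within the range of the sham arrays. The subunit genes had differences of 0.41 ± 0.22 for Nfkb2, 0.29 ± 0.23 for Nfkb1 and 0.21 ± 0.19 for Rela, with adjusted p-values between 0.267 and 0.489.

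**Figure D1:**
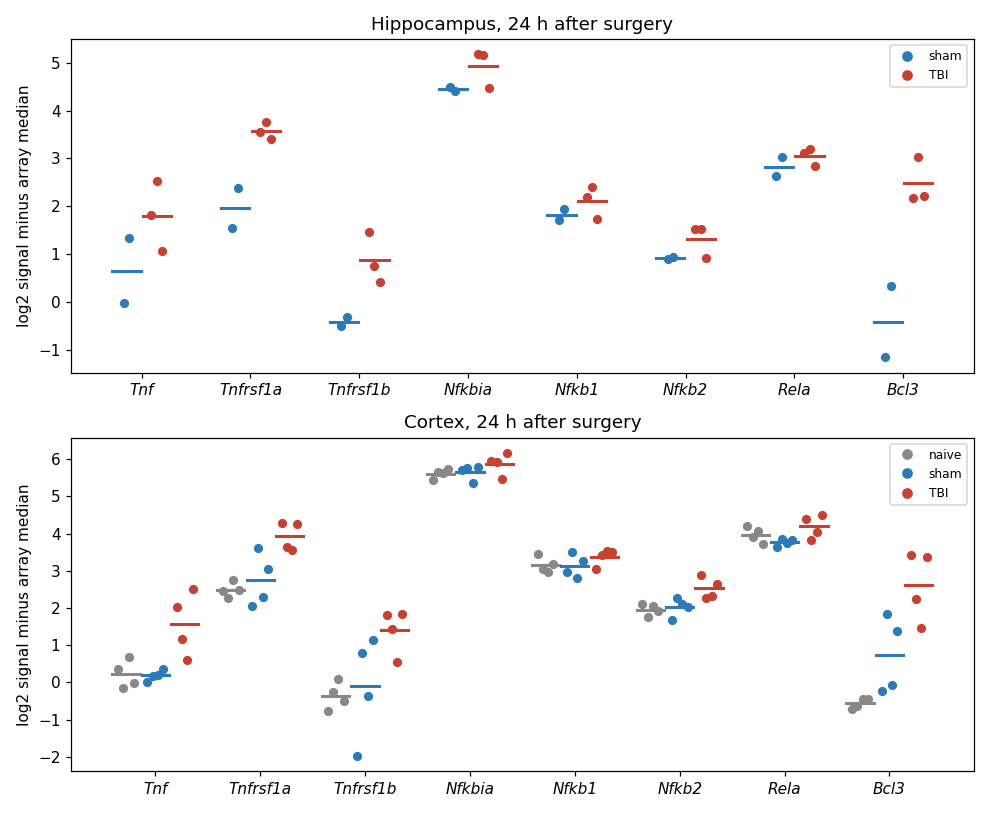
Level of each measured member at 24 hr in hippocampus (upper panel, 2 sham and 3 TBI arrays) and cortex (lower panel, 4 arrays in each of naive, sham and TBI), with genes on the x axis and log2 signal minus the array median on the y axis. Points are arrays and lines are group means. Hippocampal Bcl3 spans 2.17 to 3.04 after TBI and -1.16 to 0.33 after sham surgery, while the cortex sham arrays split into 2 low and 2 high values for Bcl3 and both receptors. Heights of different genes are not comparable.

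At 24 hr in cortex all 8 members had higher means after TBI than after sham surgery, but none passed the adjusted p, while 5 of the 8 passed the methods' thresholds and 6 had an unadjusted p below 0.05. Of all probes tested, 0.217% were called and 10.3% passed the methods' thresholds. The median difference of the members was 0.84, against 0.12 over all probes, and the difference over all probes was -0.02 when arrays were scaled to their 75th percentile. Tnf measured 2.02, 1.18, 0.60 and 2.51 after TBI, 0.02, 0.16, 0.19 and 0.37 after sham surgery and 0.36, -0.14, 0.68 and -0.03 in naive cortex. All TBI values exceeded all sham values, the only member without overlap in this comparison, and 11% of all probes lay higher without overlap. The Tnf difference from sham was 1.39 ± 0.34 (adjusted p = 0.0780).

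The sham cortices themselves were uneven at this interval. Bcl3 measured 3.41, 2.24, 1.47 and 3.37 after TBI, -0.23, 1.85, -0.07 and 1.39 after sham surgery and -0.71, -0.63, -0.45 and -0.45 in naive cortex. Sham replicates 2 and 4 were thus as high as the lowest TBI array or close to it, while sham replicates 1 and 3 lay just above the naive range. Tnfrsf1a measured 4.29, 3.64, 3.54 and 4.27 after TBI, 2.06, 3.62, 2.30 and 3.05 after sham surgery and 2.47, 2.26, 2.75 and 2.49 in naive cortex. Tnfrsf1b measured 1.82, 1.45, 0.54 and 1.83, -1.98, 0.79, -0.38 and 1.15 and -0.76, -0.25, 0.09 and -0.49 in the same order of groups. For both receptors sham replicates 2 and 4 were again the 2 higher sham arrays, and both overlapped the TBI range of Tnfrsf1b while only replicate 2 overlapped that of Tnfrsf1a. The differences from sham were 1.89 ± 0.50 for Bcl3 (adjusted p = 0.0865), 1.18 ± 0.31 for Tnfrsf1a (adjusted p = 0.0826) and 1.51 ± 0.56 for Tnfrsf1b (adjusted p = 0.158). Nfkb2 differed by 0.51 ± 0.17 and Rela by 0.43 ± 0.16, with adjusted p-values of 0.123 and 0.157, and Nfkb1 and Nfkbia differed by 0.24 ± 0.18 and 0.24 ± 0.16. A second Bcl3 probe, well above background on 1 of 4 sham arrays, gave 1.65 (adjusted p = 0.140), and a second Nfkb1 probe gave 0.15. With TBI replicate 3 left out, Bcl3 and Tnf were called, and with normexp background correction Bcl3, Tnf and both receptors were called.

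Against naive cortex, with the same TBI arrays, 5 members rose at 24 hr, against 17.5% of all probes called. Bcl3 was 9.09-fold higher (log2 difference 3.18 ± 0.50, adjusted p = 0.00743). With normexp background correction its log2 difference was 2.04 (adjusted p = 0.00535). A second Bcl3 probe, not well above background on any naive array, was at least 3.21-fold higher (adjusted p = 0.0135). Tnfrsf1a differed by 1.44 ± 0.31 (adjusted p = 0.0122), and Tnf by 1.36 ± 0.34 (adjusted p = 0.0217). Tnfrsf1b, at 1.76 ± 0.56 (adjusted p = 0.0497), was close to the threshold, with 3 of 4 naive arrays well above background for its probe, as for Bcl3. Nfkb2, the precursor gene of the slower branch, measured 2.89, 2.26, 2.32 and 2.63 after TBI, 1.68, 2.26, 2.10 and 2.03 after sham surgery and 2.12, 1.77, 2.04 and 1.91 in naive cortex. The TBI and naive values of Nfkb2 did not overlap, though the share of all probes without overlap was not counted here. Its difference was 0.57 ± 0.17 (adjusted p = 0.0370). Tnf is the member of these 5 whose TBI and naive ranges overlapped, through TBI replicate 3. The count was 2, Bcl3 and Tnfrsf1a, without any one of naive replicates 2 and 4 and TBI replicates 1 and 4, and 3 without naive replicate 3. Over all alternatives that tested it, the call was made in 15 of 15 for Bcl3, 16 of 16 for Tnfrsf1a, 12 of 16 for Tnf, 7 of 16 for Nfkb2 and 3 of 15 for Tnfrsf1b. Between sham and naive cortex at 24 hr 19.2% of all probes were called but none of the 7 members tested, 1 of which, Bcl3, had an unadjusted p below 0.05, at 1.29 ± 0.50 (adjusted p = 0.0844), whose sham values all lay above the naive ones. Without sham replicate 1 that difference was called.

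Cell-type markers moved with these results, and their part in them was not tested. Of 15 microglia and macrophage markers, 3 rose at 24 hr in hippocampus after TBI against sham, and in cortex none did against sham while 7 rose and 3 fell against naive. Their summed level, in multiples of the array median, was 1012 to 1525 in TBI and 790 to 850 in sham hippocampus, and 1320 to 1834 in TBI, 709 to 1213 in sham and 864 to 1053 in naive cortex. Of 9 neutrophil genes listed, 8 had a probe. Their summed level was 16.3 to 106 in TBI and 4.76 to 5.50 in sham hippocampus, where Elane, Cxcr2 and Ltf were well above background on no array. In cortex it was 14.7 to 169 after TBI, 6.57 to 46.7 after sham surgery and 5.33 to 9.27 in naive rats. T cell markers summed to 9.12 to 16.3 in TBI, 8.36 to 10.7 in sham and 6.57 to 9.68 in naive cortex. Sums of other cell types also separated TBI from sham hippocampus, at 83.1 to 103 against 57.4 to 72.8 for endothelial markers, 601 to 662 against 685 to 739 for neuron markers, 2261 to 2727 against 3021 to 3616 for oligodendrocyte markers and 1452 to 1647 against 1743 to 1758 for astrocyte markers. Between these small groups 50% of all probes tested did not overlap in either direction, so the separation sets the sums little apart. Against naive cortex, 4 of 8 neuron markers fell after TBI, and 3 of 7 astrocyte markers fell and 1 rose. Sham cortex differed from naive in much the same way for neuron and astrocyte markers, but not for microglia and macrophage markers. There 3 of 8 neuron markers fell, 3 of 7 astrocyte markers fell and 1 rose, and 3 of 15 microglia and macrophage markers fell and none rose. Of all probes, 13.5% were called in hippocampus and 0.217% in cortex against sham. Against naive cortex 17.5% were called for TBI and 19.2% for sham, and 4357 of the 4584 called for sham were lower. None of the neuron or astrocyte markers was called between TBI and sham cortex.

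At 2 wk in hippocampus no member passed the adjusted p against sham, although 6 of 8 had an unadjusted p below 0.05 and 3 passed the methods' thresholds. Of all probes tested, 2.37% were called and 4.56% passed the methods' thresholds. The median of the members was 0.40, against -0.11 over all probes. Tnfrsf1a measured 2.54, 2.22, 2.78 and 2.86 after TBI and 1.78, 2.04, 2.13 and 2.20 after sham surgery, a difference of 0.56 ± 0.15 (adjusted p = 0.0641). Nfkb2 measured 1.78, 1.71, 1.98 and 2.22 after TBI and 1.38, 1.54, 1.48 and 1.57 after sham surgery, a difference of 0.43 ± 0.12 (adjusted p = 0.0664). Nfkb1, which encodes the p105 precursor of p50, measured 2.81, 2.99, 2.95 and 3.27 after TBI and 2.62, 2.68, 2.70 and 2.54 after sham surgery, a difference of 0.37 ± 0.10 (adjusted p = 0.0712). For these 3 members every TBI array lay above every sham array, as did 2.56% of all probes. Tnfrsf1b measured -0.10, -0.43, 0.78 and 0.65 after TBI and -0.92, -0.87, -0.60 and -0.22 after sham surgery, with overlap and a difference of 0.88 ± 0.26 (adjusted p = 0.0839). Without TBI replicate 2 the 4 genes Tnfrsf1a, Tnfrsf1b, Nfkb2 and Bcl3 were called. With 75th percentile scaling 3 members were called.

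Tnf lay on the other side of 0 at 2 wk in hippocampus. It measured -0.95, -0.48, -0.28 and -0.98 after TBI, -0.10, 0.10, -0.15 and -0.65 after sham surgery and -0.12, 0.07, 0.14 and -0.26 in naive hippocampus. All TBI values lay below all naive values, with the share of all probes doing so not counted, and TBI and sham values overlapped. Neither the difference from sham, -0.47 ± 0.19 (adjusted p = 0.155), nor that from naive, -0.63 ± 0.19 (adjusted p = 0.0503), passed the test, but the latter did under 3 alternatives given below with those of Bcl3. Bcl3 measured 0.65, -1.17, 0.53 and 0.06 after TBI, -0.28, -1.30, -1.13 and -1.09 after sham surgery and -1.73, -1.55, -1.66 and -0.56 in naive hippocampus. TBI replicate 2 was within the range of the control arrays and the other 3 TBI arrays were above them. Bcl3 was higher than in naive rats by 1.39 ± 0.40 (adjusted p = 0.0423), the one member called in this comparison of 8, against 12.8% of all probes, and it differed from sham by 0.97 ± 0.40 (adjusted p = 0.165). Of the naive arrays 1 of 4 was well above background for this Bcl3 probe, so the difference is set against a group mostly at background, and it was not tested when detection was required in both groups. The Bcl3 call was lost without any one of naive replicates 1, 2 and 3 and TBI replicates 1, 3 and 4, and it was made under 3 of 15 alternatives in all. In its place Tnf was called as lower than naive with a replicate block (adjusted p = 0.0219), with detection required in both groups (adjusted p = 0.0458) and without TBI replicate 3 (adjusted p = 0.0420), while 75th percentile scaling called Tnfrsf1a, Nfkb1 and Nfkb2 but not Bcl3. Without TBI replicate 2 the 4 genes called were Bcl3, Tnfrsf1a, Tnfrsf1b and Nfkb2. Between sham and naive hippocampus at 2 wk no member was called and none had an unadjusted p below 0.05, against 8.92% of all probes called. Of the microglia and macrophage markers, 12 of 15 rose against sham and 13 against naive, and their summed level was 953 to 1796 after TBI, 700 to 812 after sham surgery and 723 to 997 in naive hippocampus. Blood markers, 4 hemoglobin and heme genes, were all lower than naive in both operated groups, by a median of -0.96 after TBI and -0.87 after sham surgery. They summed to 2630 to 3655 in naive, 1509 to 2056 in sham and 1439 to 1981 in TBI hippocampus. The part of these markers in the 2 wk values was not tested.

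At 2 wk in cortex the comparison with sham turned on 1 array. With all 4 sham arrays no member was called, 1 passed the methods' thresholds, and 0.00848% and 4.04% of all probes did so. The median difference was 1.11 for the members and 0.95 for all probes, and the latter was 0.20 under 75th percentile scaling and 0.42 after quantile normalization. Sham replicate 3 read -2.07 for Tnfrsf1a and 1.84 for Nfkbia, far below the other sham arrays, and it was also the lowest sham array for Tnfrsf1b, Nfkb1, Nfkb2 and Rela. For Tnf and Bcl3 it was the highest instead. Bcl3 measured 1.41, 1.67, 0.59 and 1.27 after TBI, -0.04, -0.37, 0.59 and 0.22 after sham surgery and 0.09, -0.54, -0.34 and -0.41 in naive cortex, with 2 of the 4 sham arrays well above background. Its difference from sham was 1.13 ± 0.41 (adjusted p = 0.502) with that array and 1.30 ± 0.38 (adjusted p = 0.0414) without it, the one member then called, while the number of probes called went from 2 to 510. In the authors' own normalized table its difference with all arrays was -0.21. Without that array Tnfrsf1a differed by 0.71, Nfkb2 by 0.64, Tnfrsf1b by 0.53, Tnf by 0.36, Nfkb1 by 0.34, Nfkbia by 0.29 and Rela by 0.07, none of them called. The Tnf difference with all arrays changed sign under 75th percentile scaling (-0.68) and quantile normalization (-0.13). Against naive cortex no member was called, against 0.124% of all probes. The one member with an unadjusted p below 0.05 was Bcl3. It differed by 1.54 ± 0.41 (adjusted p = 0.268), with every TBI value above every naive value. That fit took its spread from the sham arrays as well, replicate 3 among them. With only the TBI and naive arrays fitted, Bcl3 (1.54, adjusted p = 0.00445) and Tnfrsf1b (1.91, adjusted p = 0.000101) were called. Both had the same SE of 0.40, so that fit gave them a shared spread in place of their own. For Tnfrsf1b, naive replicate 4 read -2.57, and 2 of the 4 naive arrays were well above background. The small p-values therefore do not measure the spread of these genes between arrays. Sham and naive cortex gave no call in any member or in any probe (0%) at 2 wk, and all 7 members tested had an unadjusted p above 0.05, and leaving out sham replicate 3 gave no call among the members either. The microglia and macrophage markers summed to 1879 to 2993 in TBI, 33.0 to 902 in sham and 211 to 1015 in naive cortex. The lowest sham sum lay far below the sham median of 850. The part of these markers was not tested.

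**Figure D2:**
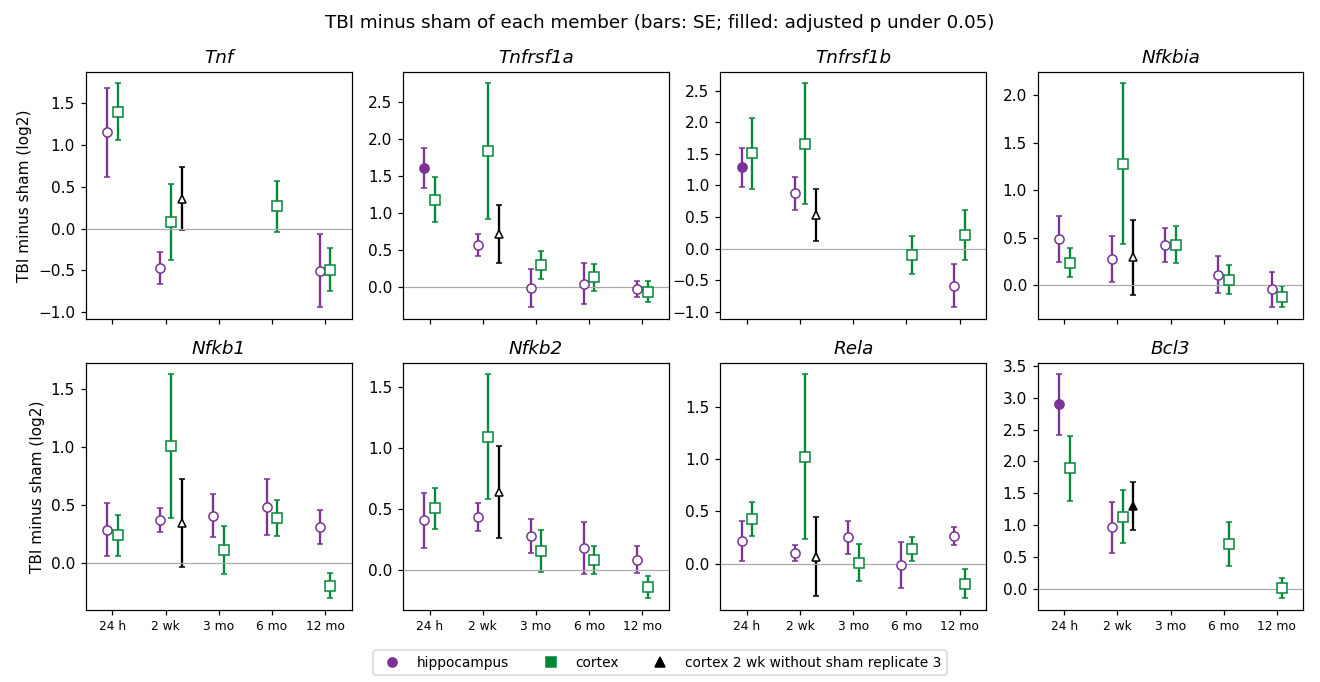
Difference between TBI and sham (log2, y axis, scale set per gene) for each measured member at each interval (x axis), in hippocampus (circles) and cortex (squares), with the cortex value at 2 wk also shown without sham replicate 3 (triangles). Bars are SE and filled symbols have an adjusted p below 0.05, which holds for Bcl3, Tnfrsf1a and Tnfrsf1b in hippocampus at 24 hr and for the Bcl3 triangle. Missing symbols are members too dim to test.

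From 3 mo on, no member was called between TBI and sham rats in either tissue, and none passed the methods' thresholds. In hippocampus the members tested were 5 at 3 mo, 5 at 6 mo and 7 at 12 mo, and in cortex 5, 8 and 8. Among all probes, 0.0134% were called at 3 mo and 0.0134% at 6 mo in hippocampus, 0.0724% at 6 mo in cortex, and 0% at 12 mo in hippocampus and at 3 mo and 12 mo in cortex. The methods' thresholds were passed by 1.75%, 2.52% and 4.52% of all probes in hippocampus at 3 mo, 6 mo and 12 mo, and by 2.97%, 3.95% and 1.56% in cortex. Of the members, 2 had an unadjusted p below 0.05 in hippocampus at 3 mo and 1 each in cortex at 3 mo, cortex at 6 mo and hippocampus at 12 mo.

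Tnf and Tnfrsf1b were near background at these intervals. Tnf was too dim to test in hippocampus at 3 mo and 6 mo and in cortex at 3 mo, and elsewhere its difference was 0.27 ± 0.31 in cortex at 6 mo, -0.50 ± 0.44 in hippocampus at 12 mo and -0.49 ± 0.25 in cortex at 12 mo. In the last of these all TBI values lay below all sham values, against 4.08% of all probes whose groups did not overlap in either direction. Tnfrsf1a, bright on every array, differed by -0.03 ± 0.26, 0.04 ± 0.28 and -0.03 ± 0.11 in hippocampus at 3 mo, 6 mo and 12 mo, and by 0.29 ± 0.19, 0.13 ± 0.18 and -0.07 ± 0.14 in cortex. Tnfrsf1b could be tested only in cortex at 6 mo (-0.11 ± 0.30) and in both tissues at 12 mo (-0.59 ± 0.34 in hippocampus and 0.22 ± 0.40 in cortex).

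No difference of a subunit gene passed the test at these intervals. Nfkb1 differed by 0.41 ± 0.19, 0.48 ± 0.24 and 0.31 ± 0.15 in hippocampus at 3 mo, 6 mo and 12 mo, and by 0.11 ± 0.21, 0.39 ± 0.16 and -0.19 ± 0.11 in cortex. Its TBI and sham values did not overlap in hippocampus at 3 mo and 6 mo and in cortex at 6 mo, where 3.66%, 9.42% and 5.56% of all probes did not overlap in either direction. In cortex at 6 mo a second Nfkb1 probe went the other way, with overlap, averaging 0.44 after TBI and 0.61 after sham surgery. At the other late intervals with this probe, its means differed in the same direction as those of the first. Nfkb2 lay between -0.14 ± 0.09 in cortex at 12 mo and 0.28 ± 0.14 in hippocampus at 3 mo. Rela, the p65 gene, measured 4.05, 3.97, 3.94 and 3.96 in TBI and 3.77, 3.69, 3.78 and 3.63 in sham hippocampus at 12 mo. Those values did not overlap, nor did 9.60% of all probes, and the difference was 0.26 ± 0.09 (adjusted p = 0.266). Bcl3 was too dim to test in hippocampus from 3 mo on and in cortex at 3 mo. In hippocampus at 3 mo it measured -0.03, -0.25, 1.05 and -0.42 after TBI, 3 of 4 arrays being well above background. After sham surgery it measured -1.47, -1.24, -0.17 and -1.36, with 2 of 4 arrays well above background. The groups overlapped, and that difference was not tested. In cortex Bcl3 differed by 0.71 ± 0.34 (adjusted p = 0.531) at 6 mo and by 0.02 ± 0.16 at 12 mo.

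Nfkbia, the feedback inhibitor, had one late difference, and it set both operated groups apart from naive rats. In cortex at 12 mo it measured 5.23, 5.07, 5.09 and 5.21 after TBI, 5.21, 5.13, 5.41 and 5.35 after sham surgery and 5.76, 6.10, 5.54 and 5.87 in naive rats. All naive values lay above all sham and TBI values, while TBI and sham values overlapped. How many of all probes set naive arrays apart in this way was not counted. Nfkbia was lower in TBI than in naive cortex (-0.67 ± 0.11, adjusted p = 0.00573) and lower in sham than in naive cortex (-0.54 ± 0.11, adjusted p = 0.0214), and TBI and sham differed by -0.12 ± 0.11 (adjusted p = 0.879). It was the one member called in each of the first 2 comparisons, of 6 tested against naive for TBI and 8 for sham, against 5.34% and 4.35% of all probes. The call against naive held for TBI without any single array, but for sham it was lost without any one of naive replicate 4 and sham replicates 1 and 2. Both comparisons share the naive arrays, and the naive arrays at 12 mo lay on another slide than the operated ones, so that slide and surgery cannot be told apart. The microglia and macrophage markers summed to 697 to 927 in naive, 675 to 807 in sham and 668 to 772 in TBI cortex at 12 mo. Other marker sums were higher in every naive array than in any operated one, astrocyte markers at 2006 to 2390 in naive, 1738 to 1956 in sham and 1697 to 1910 in TBI cortex, and endothelial markers at 298 to 318, 255 to 292 and 248 to 270. Oligodendrocyte markers summed to 4326 to 6642 in naive, 2617 to 5298 in sham and 1582 to 3438 in TBI cortex. The part of these markers in the Nfkbia values was not tested. In hippocampus at 12 mo Nfkbia averaged 5.85 ± 0.20 (SD, n = 4) in naive, 5.60 ± 0.26 in sham and 5.55 ± 0.36 in TBI rats.

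**Figure D3:**
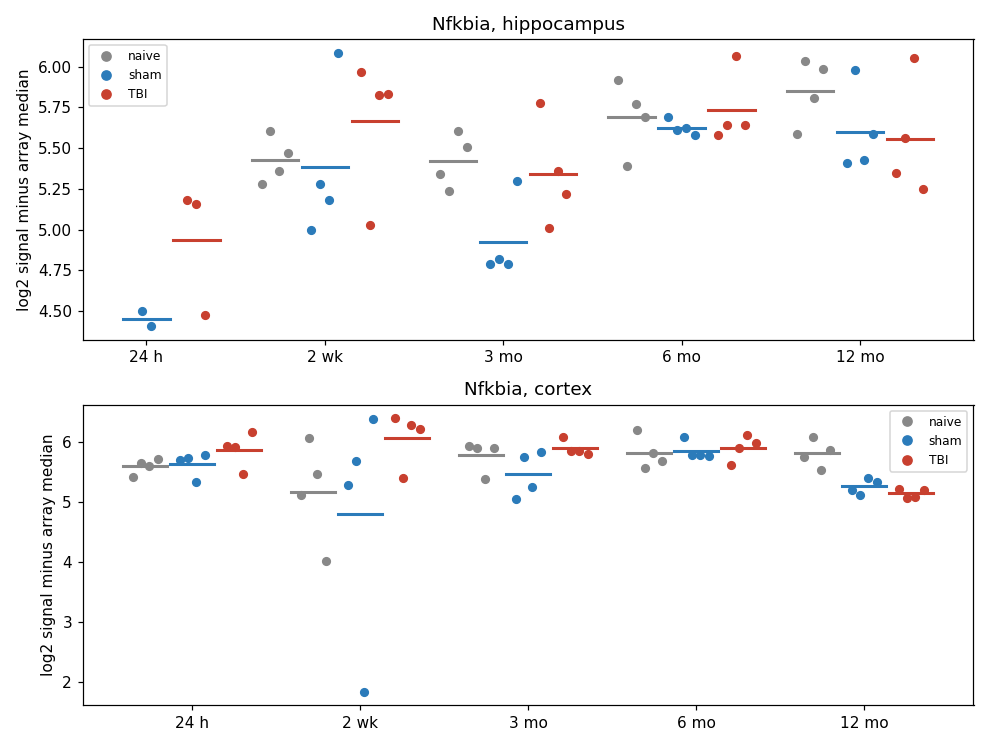
Nfkbia level (log2 signal minus the array median, y axis) on each array by interval (x axis) in naive, sham and TBI rats, in hippocampus (upper panel) and cortex (lower panel). Points are arrays and lines are group means. In cortex at 12 mo the naive arrays lie from 5.54 to 6.10 and all 8 operated arrays from 5.07 to 5.41, and at 2 wk sham replicate 3 lies alone at 1.84. The hippocampal arrays at 24 hr and 3 mo are of the smaller design and are not comparable with the others.

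Sham against naive rats gave no further call among the members. None was called at 3 mo in hippocampus (0% of all probes) or cortex (0.408%), at 6 mo in hippocampus (3.54%) or cortex (0%), or at 12 mo in hippocampus (3.11%), and the unadjusted p was below 0.05 only for Nfkbia in hippocampus at 3 mo and Rela in hippocampus at 6 mo. TBI against naive gave no further call at 3 mo in hippocampus (0.0062% of all probes) or cortex (0.538%), at 6 mo in hippocampus (3.81%) or cortex (0.273%), or at 12 mo in hippocampus (2.16%), with an unadjusted p below 0.05 for 1, 1, 1, 2 and 0 members. Rela came nearest, in hippocampus at 6 mo, where it measured 4.11, 3.80, 3.90 and 3.89 after sham surgery, 3.87, 3.98, 3.92 and 3.86 after TBI and 3.82, 2.77, 3.62 and 2.98 in naive rats. The naive arrays were spread more widely than the operated ones, and 2 of the 4 were clearly lower. The difference from naive was 0.63 ± 0.22 (adjusted p = 0.125) for sham and 0.61 ± 0.22 (adjusted p = 0.146) for TBI, and both passed the test without naive replicate 1 and under 75th percentile scaling.

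The size of the injury difference was compared between tissues and between early intervals. No member was called for a TBI minus sham difference that was unequal in hippocampus and cortex at 24 hr (2.37% of all probes called), 2 wk (0%), 3 mo (0%), 6 mo (0.004%) or 12 mo (0%). No member had an unadjusted p below 0.05 at the first 4 of these intervals, and leaving out cortex sham replicate 3 gave no call at 2 wk either. Bcl3 was not in the comparisons at 24 hr and 3 mo, being read by different probes on the 2 designs. At 12 mo, 3 members had an unadjusted p below 0.05, the hippocampal minus the cortical difference being 0.46 for Rela, 0.51 for Nfkb1 and -0.81 for Tnfrsf1b, with adjusted p-values from 0.411 to 0.433. The difference at 2 wk minus that at 24 hr in hippocampus was -1.04 ± 0.31 for Tnfrsf1a (adjusted p = 0.0517) and -1.62 ± 0.56 for Tnf (adjusted p = 0.0871), neither of which passed the test, against 10.9% of all probes. In cortex no member was called for this change, with or without sham replicate 3 at 2 wk, and 0% of all probes were, 1 member having an unadjusted p below 0.05. The hippocampal values at the 2 intervals come from different array designs, and Tnfrsf1a was called with normexp background correction. Without sham replicate 2 or TBI replicate 3 at 24 hr 2 members were called, and 1 without sham replicate 1 at 2 wk.

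In naive rats 3 of the 6 members tested were called between the tissues at 12 mo. Among all probes 37.3% were called, so the count sets the members little apart from other genes. Bcl3 was lower in hippocampus than in cortex by a log2 difference of -0.88 ± 0.21 (adjusted p = 0.0104), with 1 of 4 hippocampal arrays well above background for its probe, Nfkb1 by -0.46 ± 0.14 (adjusted p = 0.0249) and Nfkb2 by -0.38 ± 0.11 (adjusted p = 0.0220). A second Nfkb1 probe went the other way, averaging 0.70 in hippocampus and 0.48 in cortex. Hippocampal replicate 3 read 2.93 for it, and 2 of 4 hippocampal arrays were well above background. Without cortex naive replicate 1 or 4 the count was 1, that of Bcl3. The Nfkb1 call was also lost without cortex naive replicate 3, and the Nfkb2 call without hippocampus naive replicate 3 or 4. The median difference of all probes was 0.13. At 2 wk and 6 mo no member was called, against 5.02% and 16.6% of all probes, and the one unadjusted p below 0.05 was that of Bcl3 at 2 wk, called when cortex naive replicate 4 was left out. Tissue and slide cannot be told apart in these comparisons, and the rats of an interval gave both tissues, so that the arrays compared share animals.

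Across all group means on the larger design, the highest cortical level of Tnf, Tnfrsf1a, Tnfrsf1b, Nfkb2, Rela and Bcl3 was that of the TBI group at 24 hr. Tnf ranged in cortex from -0.81 ± 0.24 (SD, n = 4) in TBI rats at 12 mo to 1.58 ± 0.85 in TBI rats at 24 hr. Bcl3 ranged from -0.80 ± 0.27 in naive rats at 3 mo to 2.62 ± 0.94 after TBI at 24 hr, and Tnfrsf1b from -0.96 ± 0.55 to 1.41 ± 0.61 in the same groups. The spread between arrays was as wide as many of these steps, above all for the dim genes. In hippocampus on the smaller design, the group means of Tnf ran from -1.10 ± 0.07 in naive rats at 3 mo to 1.80 ± 0.73 after TBI at 24 hr, and those of Tnfrsf1a from 1.74 ± 0.33 to 3.57 ± 0.18 in the same groups. Nfkbia had the highest hippocampal mean on the larger design in naive rats at 12 mo, 5.85 ± 0.20, and the lowest in sham rats at 2 wk, 5.39 ± 0.48. On that design the hippocampal means of Rela ran from 3.30 ± 0.50 in naive rats at 6 mo to 3.98 ± 0.05 after TBI at 12 mo, and those of Nfkb1 from 2.62 ± 0.14 in sham to 3.11 ± 0.16 in TBI rats at 6 mo.

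Other genes of the pathway were read against the same tests. In hippocampus at 24 hr, NF-kB target genes had 8 of 16 tested higher after TBI and none lower, with a median difference of 1.20, against 0.00 over all named genes. Of 25 targets with a probe only these 16 were bright enough to test, and some entered through the TBI group alone. The count and the median therefore describe the targets tested and not all 25. Ccl2, the monocyte-attracting chemokine, differed by 6.24 (adjusted p = 0.00760), with 1 of the 2 sham arrays well above background. In 3 further targets neither sham array was well above background, and Cxcl1, a neutrophil attractant, was at least 17.7-fold higher (adjusted p = 0.00557), the cytokine gene Il1b at least 6.90-fold (adjusted p = 0.00753) and the survival gene Bcl2a1 at least 3.26-fold (adjusted p = 0.00818). Of 11 TNF superfamily ligands and receptors tested, 4 rose and 1 fell, with a median of 0.55. The TWEAK receptor gene Tnfrsf12a differed by 3.54 (adjusted p = 0.00365), Tnfrsf9 (4-1BB) by 1.49 (adjusted p = 0.0177), the lymphotoxin receptor gene Ltbr by 1.34 (adjusted p = 0.0215) and Lta (lymphotoxin alpha) by -1.24 (adjusted p = 0.0176). These counts stand against 13.5% of all probes called in this comparison, and that of the next list, 2 of 13, is near that share. Among 13 receptor adaptors and ubiquitin genes 2 rose, Birc3, at least 3.57-fold higher (adjusted p = 0.00575), and Birc2, by 0.62 (adjusted p = 0.0463), which both encode ubiquitin ligases of the TNF receptor complex. None of 6 IKK and related kinases and neither of 2 other NF-kB and IkB genes tested was called.

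In cortex at 24 hr against sham, 1 of 14 TNF superfamily genes was called, Tnfsf9, the 4-1BB ligand (1.55, adjusted p = 0.0462), against 0.217% of all probes. None of 17 targets was called, although 10 passed the methods' thresholds and their median difference was 0.93 against 0.14 over all named genes. None of 18 adaptors, 7 kinases and 2 other NF-kB and IkB genes was called. In hippocampus at 2 wk the genes called were Tnfsf13b, which encodes the B cell factor BAFF (1.32, adjusted p = 0.0456), Cd40 (1.04, adjusted p = 0.0426), Casp8 (0.92, adjusted p = 0.0293), Bcl2a1 (1.18, adjusted p = 0.0249) and Tlr2 (0.62, adjusted p = 0.0351). They came from 14 superfamily genes, 16 adaptors and 15 targets tested, all higher after TBI, against 2.37% of all probes. In cortex at 2 wk, and in both tissues at 3 mo, 6 mo and 12 mo, no gene of the 5 lists was called against sham.

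**Figure D4:**
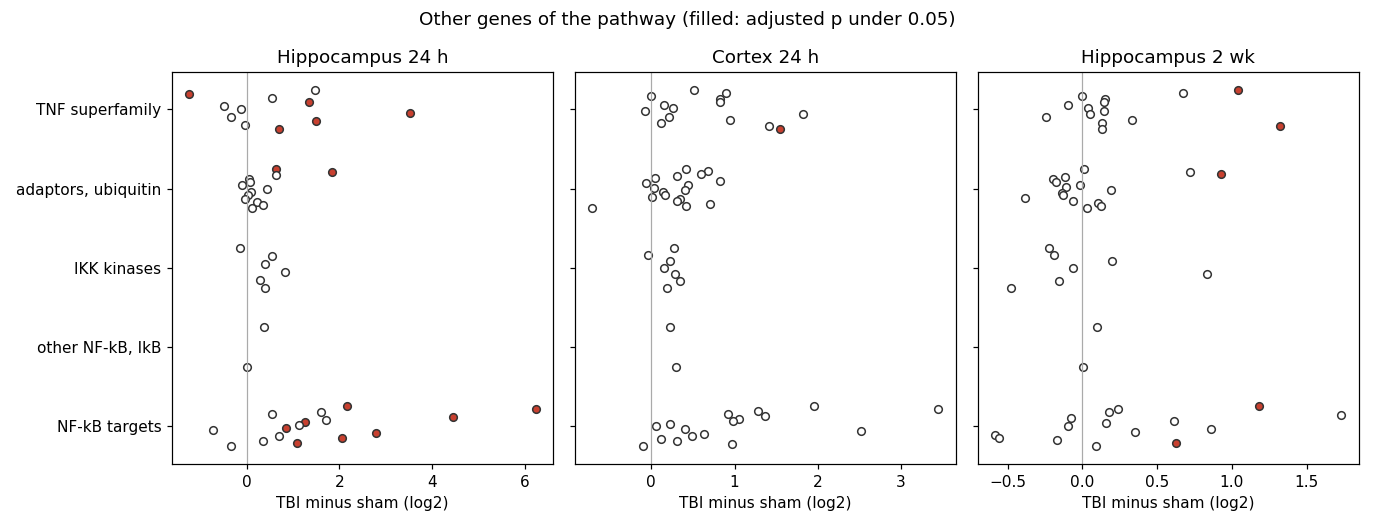
Difference between TBI and sham (log2, x axis, scale set per panel) for each tested gene of 5 pathway lists (y axis) in hippocampus at 24 hr, cortex at 24 hr and hippocampus at 2 wk. Each point is a gene, spread vertically within its list, and filled points have an adjusted p below 0.05. Filled targets lie to the right of 0 in hippocampus at 24 hr (8 of 16), and no target is filled in cortex at 24 hr. The points of Cxcl1, Il1b, Bcl2a1 and Birc3 in hippocampus at 24 hr are fitted values against a sham group below background.

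Likeness over the 24 group means of the larger design, as Pearson's r among 11390 named genes, is given as a description, the groups sharing tissue, slide and scaling. The genes most like Tnf were S100a8 (0.85), S100a9 (0.81) and Tk1 (0.80). Those most like Tnfrsf1a were Mvp (0.95), S1pr3 (0.94) and Angptl4 (0.92), and those most like Tnfrsf1b were Arpc1b (0.93), Lyz2 (0.92) and Clic1 (0.905). S100a8 and S100a9 encode the calprotectin subunits abundant in neutrophils, and Lyz2 encodes a lysozyme of myeloid cells. For Bcl3 they were Slamf9 (0.93), Batf (0.91) and Igsf7 l1 (0.90), and for Nfkb2 they were Icam1 (0.94), Tmem37 (0.93) and Piezo1 (0.92). For Nfkbia they were Nfe2l2 (0.92), Ftl1 (0.89) and RT1-S3 (0.89), for Nfkb1 Ctnna1 (0.89), Ethe1 (0.88) and Slco4a1 (0.88), and for Rela Rassf1 (0.95), Ddx54 (0.94) and Daxx (0.92). Between members the value was highest for Tnfrsf1a with Nfkb2 (0.89) and lowest for Tnf with Rela (0.10).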

How the data were processed

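Total RNA from 113 samples was hybridised to 1-colour Agilent rat arrays of 2 designs (96 and 17 arrays). The deposited scanner files hold spot intensities from Agilent Feature Extraction 11.5.1.1, background-subtracted and detrended per the file headers, and a deposited table holds the intensity of each array after the authors divided it by the array median. The sample labels gave tissue, injury, interval and replicate. The age of the rats, beyond adult, is not given in the sources used here. By the animal count in the methods the rats of an interval gave both tissues. The labels do not say that equal replicate numbers mark the same rat.

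Control spots and spots marked as outliers (0.736%) were left out, spots of a probe were averaged, and log2 processed intensity minus the array median over non-control probes was tested with limma 3.58.1 in R 4.3.3 (lmFit, contrasts.fit, eBayes), with all groups of a tissue and interval in 1 fit. A probe was tested if well above background on every array of at least one group compared, and p-values were adjusted over all probes tested. Probes were named through RefSeq accessions (46.3% of the larger and 61.4% of the smaller design), a gene being read from its brightest probe. The members, the pathway lists and the marker lists were chosen with earlier results of these data known. The text names all members and, of each list and TBI against sham comparison, up to 4 called genes with the largest difference. "At least N-fold" sets the bright group's mean against the lowest signal among probes well above background, or the probe's own where that is higher. The scripts were tested on simulated data. Replicate numbers were checked as pairs: every pair's deviations correlated above 0.1 for TBI against sham cortex at 12 mo (0.12 to 0.22), sham against naive hippocampus at 3 mo (0.11 to 0.52) and naive hippocampus against cortex at 2 wk (0.11 to 0.25) and 12 mo (0.28 to 0.37), and a replicate block changed no call there. Array number limits precision, and p-values measure the spread between arrays, each labelled a separate sample. Fits in cortex at 2 wk are an exception, since members there had nearly equal SEs and the spread was largely shared over probes. Without sham replicate 3 these SEs ran from 0.38 for Bcl3 to 0.41 for Tnfrsf1b. Alternatives were 75th percentile scaling, quantile normalization, the authors' table, normexp on median spot and background signals (offset 50), other detection filters, only the groups compared, a replicate block and leaving out each array.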

Additional observations from a re-analysis of the deposited data

Results flagged for a closer look

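In each group of 4 arrays the highest or lowest array was set against its neighbours by the ratio of its gap to the group's range. Of 216 groups (a member in a tissue, treatment and interval), 19 held an array past the 95% critical ratio of Dixon, which chance passes in about 1 in 20 groups. Of these arrays, 15 were distinct, and cortex sham replicate 3 at 2 wk accounted for 5, with low values of -2.07 for Tnfrsf1a, -4.05 for Tnfrsf1b, 0.31 for Nfkb1, -0.0046 for Nfkb2 and 0.0313 for Rela. That array also had the highest share of probes well above background (93.0%), and the report gives the 2 wk values without it.

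Nfkbia held 5 such arrays: cortex naive replicate 3 at 3 mo (5.38), cortex sham replicate 1 at 6 mo (6.09), hippocampus TBI replicate 2 at 2 wk (5.03), hippocampus TBI replicate 3 at 6 mo (6.07) and hippocampus sham replicate 4 at 3 mo (5.30). For Tnf it was hippocampus naive replicate 3 at 12 mo (0.26), for Tnfrsf1a hippocampus TBI replicate 3 at 3 mo (2.74), and for Tnfrsf1b hippocampus sham replicate 2 at 6 mo (-0.16). For Nfkb1 it was hippocampus sham replicate 3 at 3 mo (0.96), and for Nfkb2 cortex naive replicate 1 at 3 mo (1.63) and cortex sham replicate 4 at 6 mo (1.90). Rela had cortex sham replicate 1 at 3 mo (3.39). Bcl3 had hippocampus naive replicate 4 at 2 wk (-0.56) and hippocampus TBI replicate 1 at 6 mo (-1.28).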

How the results depend on the processing

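Of 624 recomputed counts of called members, 563 stayed within 1.5 times the reported count and 61 did not. Differences of single members were recomputed if called or, for TBI against sham, if they passed the methods' thresholds. Of 340 such values, 255 kept direction and side of the threshold, 68 lost the call, 16 gained one and 1 changed sign: Bcl3 in cortex at 2 wk, -0.21 in the authors' table. The cause of these moves was not tested. For TBI against sham, the 3 calls in hippocampus at 24 hr became 0 with no filter on dim probes and 1 with a replicate block. The 0 in cortex at 24 hr became 4 with normexp and 3 with no filter. The 0 in hippocampus at 2 wk became 3 with 75th percentile scaling and with the authors' table, and 1 with quantile normalization, normexp, or detection required in both groups. For TBI against naive, the 5 in cortex at 24 hr became 3 with quantile normalization, no filter, detection in both groups, or a replicate block. The 1 in hippocampus at 2 wk, Bcl3, became 3 others with 75th percentile scaling, 4 with the authors' table, and 0 with quantile normalization, no filter, or only the groups compared. The count stayed at 1 but the gene became Tnfrsf1a with normexp and Tnf, lower, with detection in both groups or a replicate block. The 0 in cortex at 2 wk became 2 with only the groups compared. In hippocampus at 6 mo Rela alone was called, 1 member, with 75th percentile scaling, quantile normalization and the authors' table for sham and TBI against naive and with normexp for TBI, and at 12 mo 1 with normexp. The 1 in cortex at 12 mo for sham against naive became 0 with normexp, only the groups compared, or a replicate block (Nfkbia, adjusted p = 0.0617). The change from 24 hr to 2 wk in hippocampus gave 1 with normexp. Naive hippocampus against cortex gave 1 at 2 wk with 75th percentile scaling, and 0 in place of 3 at 12 mo with no filter.

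Leaving out 1 array at a time gave 0 to 5 members for TBI against sham in hippocampus at 24 hr, 0 to 2 in cortex at 24 hr, 0 to 4 in hippocampus at 2 wk and 0 to 1 in cortex at 2 wk. For TBI against naive it gave 2 to 6 in cortex at 24 hr, 0 to 4 in hippocampus at 2 wk, 0 to 1 in hippocampus at 6 mo and 1 to 1 in cortex at 12 mo. For sham against naive it gave 0 to 1 in cortex at 24 hr, in hippocampus at 6 mo and in cortex at 12 mo. For the change from 24 hr to 2 wk in hippocampus it gave 0 to 2, and for naive hippocampus against cortex 0 to 1 at 2 wk and 1 to 3 at 12 mo. All other counts stayed at 0. The replicate block moved no count by over 1.5 times other than those named. Where the numbers were only shared numbers, it is not read as a weaker effect. A slide block gave no further value, since slides held either both groups whole or only one. Dim probes limit Tnf, Tnfrsf1b and Bcl3, which were not tested in several late comparisons.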
